A study of Homo sapiens with 40 samples.

Results

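The genes described here are 9 genes of the acute-phase response, complement and fibrinogen: FGA, FGB, FGG, SAA1, SAA2, ORM1, SERPINA3, C3 and CFB. They were taken by symbol from the 60708 genes of each count table, and they were selected on the RNA-seq counts of these same libraries across all 8 groups. Their levels and fitted differences are therefore a description and independent support for nothing, and an adjusted p places a gene among all genes tested, nothing more. RNA was sequenced from 24 libraries in 8 groups of 3. MI-spheres are MCF-10A cells, an immortalized breast epithelial line, and MII-spheres are MCF-10AneoT cells, the HRAS-transformed derivative. Both were grown in 3D on ultra-low attachment plates and were left untreated (Ctrl) or stimulated with TGFβ1 at 2.5 ng/ml for 16 h (TGFβ). MDA-MB-231 cells, a triple-negative breast cancer line, were grown as monolayers in DMEM with FBS. They were WT and untreated, carried the label SLUG KO after Cas9 was directed to the start of SNAI2, which encodes SLUG, or were WT cells transfected with control siRNA (Csi) or with siRNAs against SMAD2, SMAD3 and SMAD4 (siSMAD2/3/4). Each sphere line is 1 line, so HRAS cannot be told apart from other differences between the lines. Knockout cells were expanded from single cells, and whether the 3 libraries share a clone is not given in the sources used here. The labels do not state separate cultures for the replicates, so errors measure the spread between libraries, which may be technical.

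The acute-phase response is the change in plasma proteins that follows injury or infection. It is best known in the liver, where IL-6 acts through STAT3 and IL-1 acts through NF-κB and C/EBP factors, while HNF1 proteins hold the basal expression of several of these genes. Epithelial cells make some of the same proteins. Fibrinogen is assembled from Aα, Bβ and γ chains, encoded by FGA, FGB and FGG, and is cleaved by thrombin to form fibrin. C3 is the protein on which all complement pathways converge, and CFB supplies the protease of the alternative pathway, which amplifies C3 cleavage. SAA1 and SAA2 encode the acute-phase serum amyloid A proteins, ORM1 encodes orosomucoid, and SERPINA3 encodes alpha-1-antichymotrypsin, an inhibitor of neutrophil cathepsin G. TGFβ acts through SMAD2 and SMAD3 with SMAD4.

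The 3 fibrinogen genes lie side by side on chromosome 4 in GRCh38, FGB at 154563011-154572807 on the plus strand, FGA at 154583128-154590745 and FGG at 154604134-154612967 on the minus strand. Their promoters are shown because the 3 chains form 1 protein while their RNA levels in these cells went separate ways. The sequences are from a table of RefSeq promoters (GRCh38.p14), in which 6 of the 9 genes were matched, FGA, FGB, FGG, CFB, SERPINA3 and ORM1, and SAA1, SAA2 and C3 were not. Each runs from 250 bases before to 50 bases after the start site, 5′ to 3′ on the strand of the gene. Capitals mark GTTAAT, the half-site bound by HNF1 proteins, and CTGGGA, the core of the type II IL-6 response element, on either strand.
FGA promoter, chr4:154590693-154590992, minus strand: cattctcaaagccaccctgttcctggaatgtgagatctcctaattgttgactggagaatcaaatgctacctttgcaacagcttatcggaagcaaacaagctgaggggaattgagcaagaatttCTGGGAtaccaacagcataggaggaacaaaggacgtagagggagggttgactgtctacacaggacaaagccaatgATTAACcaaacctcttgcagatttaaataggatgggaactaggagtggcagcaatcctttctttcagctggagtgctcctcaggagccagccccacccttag
FGB promoter, chr4:154562761-154563060, plus strand: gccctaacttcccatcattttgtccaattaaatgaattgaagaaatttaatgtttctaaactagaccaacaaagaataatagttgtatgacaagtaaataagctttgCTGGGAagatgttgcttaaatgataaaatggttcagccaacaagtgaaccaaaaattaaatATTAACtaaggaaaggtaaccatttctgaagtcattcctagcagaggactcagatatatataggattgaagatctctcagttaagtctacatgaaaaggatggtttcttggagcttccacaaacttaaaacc
FGG promoter, chr4:154612607-154612906, minus strand: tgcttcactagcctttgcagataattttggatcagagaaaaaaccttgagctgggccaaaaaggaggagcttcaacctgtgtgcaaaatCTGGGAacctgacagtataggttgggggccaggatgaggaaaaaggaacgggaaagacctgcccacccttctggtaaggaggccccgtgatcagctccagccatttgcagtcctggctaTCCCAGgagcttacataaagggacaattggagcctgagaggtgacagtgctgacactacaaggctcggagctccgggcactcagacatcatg
GTTAAT occurred once in FGA, from position -52, and once in FGB, from position -82, in both on the opposite strand, and was not in the FGG window. It was in 6.88% of the 35116 promoter windows of this length. CTGGGA occurred once in FGA, once in FGB and in 2 places in FGG, and was in 33.3% of all windows. Another FGB window from the same source, chr4:154562730-154563029, is not printed. From its start site the same GTTAAT lies at -51 and the same CTGGGA at -112, so the FGB positions depend on the window chosen. The 3 windows held no CAGGTG, the E-box bound by SNAI proteins, which 20.6% of all windows held and which occurred once in the CFB window. CAGAC, a motif bound by SMAD proteins, was in the FGG window once and in 45.3% of all windows. These are matches of letters, not sites, and the letters overlap with no other marked motif.

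Total counts per library ranged from 14124688 to 38406952. CPM are counts relative to library size after TMM scaling over all 24 libraries, and WT replicate 2 stood apart from the other WT libraries, with r of 0.950 and 0.945 against 0.992 between the others. SNAI2 was at 30.2, 20.9 and 33.7 CPM in the WT libraries and at 63.5, 57.7 and 64.3 CPM in those labelled SLUG KO (log2 fold-change 1.10 ± 0.21 SE, adjusted p = 0.0399). A cut in exon 1 need not lower the RNA, so this level does not check the edit, and the group is called by its label. siSMAD2/3/4 lowered SMAD2 from 90.5 to 23.95, SMAD3 from 266 to 165 and SMAD4 from 55.4 to 16.8 CPM. HRAS was at 40.7 CPM in MI Ctrl and at 220 CPM in MII Ctrl. The 8 hepatocyte markers, ALB and TTR among them, summed to between 0.0676 and 0.950 CPM in every library, with no marker at a group mean of 1 CPM. Of the 7 leukocyte markers CD14 was the main one, at 101.5 CPM in MI Ctrl and 192 CPM in MII Ctrl, and LYZ was at 35.7 CPM in MII Ctrl, while PTPRC stayed under 0.4 CPM in every group. All 7 basal epithelial markers were above 1 CPM in MI Ctrl and 6 of 7 in MII Ctrl, where TP63 was at 0.620 CPM, against 51.2 CPM in MI Ctrl. The sum of the 4 luminal markers, listed as to be low, was not low in spheres. These markers summed to 347 to 357 CPM in MI Ctrl and 394 to 420 CPM in MII Ctrl, against 75.0 to 174 CPM in WT. In MI Ctrl and in MII Ctrl 3 of the 4 averaged 1 CPM or more, so the sum does not describe each marker. Spheres had VIM at 1.71 to 8.03 CPM and MDA-MB-231 cells at 732 to 1007 CPM. Their part in the results was not tested.

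Of the 9 members 6 had their highest group mean in unstimulated MI-spheres. For FGG these libraries overlapped with those of MI-spheres with TGFβ (means of 16.5 and 16.2 CPM). SAA1 and SAA2 had the same order of group means over the 8 groups, and so did FGB and FGG. In MI Ctrl, per kb of exon, C3 was the most abundant at 158 CPM per kb, followed by SAA1 at 76.2, SAA2 at 10.6, FGB at 7.28, CFB at 5.29 and FGG at 4.57 CPM per kb. FGA was at 0.0172 CPM per kb there. The length used is that of all annotated exons of a gene, 710 bases for SAA1 and 2242 for SAA2, not of the expressed transcript. The SAA1 to SAA2 ratio in MI Ctrl was 2.28 in counts and 7.20 per kb, so this order depends on the annotated length. Fragments on exons shared with another gene were not counted, and such exons make up 48.0% of CFB, 31.7% of SERPINA3, 14.2% of SAA2 and 7.18% of SAA1, so these levels are understated. SAA1 and SAA2, and ORM1 and ORM2, are near-identical copies whose reads can be lost or split, and the values of these genes are uncertain for that reason. ORM1 had 0 counts in 20 of 24 libraries and at most 2 in the others, where 3 counts correspond to 0.0790 to 0.204 CPM, and no fold is given for it.

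In MI-spheres, TGFβ lowered 5 of the 6 members that passed the low-count filter, and none rose. Over all 16863 genes tested, 27.4% fell and 28.7% rose at an adjusted p under 0.05 (edgeR quasi-likelihood test, Benjamini-Hochberg), and the median log2 fold-change was -2.08 over these 6 members against -0.02 over all genes. FGB was at 30.4, 34.1 and 30.9 CPM in Ctrl and at 8.89, 9.22 and 9.79 CPM with TGFβ. The groups did not overlap, and FGB fell by 1.85 ± 0.086 (SE) on the log2 scale. FGG, the γ chain gene of the same cluster, was at 16.2, 15.3 and 17.9 CPM in Ctrl and at 15.4, 15.3 and 17.8 CPM with TGFβ. These ranges overlapped almost wholly (log2 fold-change -0.10 ± 0.091, adjusted p = 0.344). The ratio of FGB to FGG counts thus went from 1.95 ± 0.26 (SD, n = 3) to 0.576 ± 0.026. FGA had 0 to 5 counts per library, so that both the Bβ and γ chains were transcribed with hardly any Aα chain RNA.

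The serum amyloid genes moved further than fibrinogen in the same spheres. SAA1 was at 51.9, 56.3 and 54.2 CPM in MI Ctrl and at 11.8, 10.96 and 11.96 CPM with TGFβ. SAA2 was at 25.7, 23.2 and 22.6 CPM in Ctrl and at 3.18, 3.45 and 4.17 CPM with TGFβ. Neither gene's groups overlapped, and they fell by 2.31 ± 0.075 and 2.80 ± 0.11 on the log2 scale. SERPINA3, at 5 to 10 counts per library, was not tested in MI-spheres (0.257 and 0.354 CPM).

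Both complement genes fell in MI-spheres. C3 was at 1348, 1325 and 1270 CPM in Ctrl and at 514, 490 and 454 CPM with TGFβ, a fall of 1.52 ± 0.058 on the log2 scale. CFB was at 25.9, 25.1 and 24.03 CPM in Ctrl and at 4.22, 4.30 and 4.47 CPM with TGFβ, and fell by 2.61 ± 0.099. The Ctrl and TGFβ libraries were apart for both genes, and the CFB to C3 count ratio went from 0.0190 ± 0.00015 to 0.00894 ± 0.00083. CPM ratios are about 0.08 higher on the log2 scale than the fitted differences in MI-spheres, since each fit was scaled on its own libraries.

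In MII-spheres with TGFβ, 3 of the 6 members tested rose and 1 fell, where 29.9% of 16396 genes rose and 27.6% fell. The median was 0.37 over these members and -0.02 over all genes. FGB was at 0.595, 0.201 and 0.721 CPM in MII Ctrl and at 4.33, 3.86 and 2.72 CPM with TGFβ, which rests on 6 to 13 counts per library in Ctrl. It rose by 2.95 ± 0.33 on the log2 scale, without overlap, to a mean of 3.64 CPM, against 9.30 CPM in MI-spheres with TGFβ. FGB entered this test only through the TGFβ libraries, so its side was fixed by the filter. FGG had 1, 3 and 6 counts in Ctrl and 12, 12 and 5 counts with TGFβ and was not tested within MII-spheres. FGA had 0 counts in all 6 MII libraries.

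SERPINA3 and C3 were the other members that rose in MII-spheres. SERPINA3 was at 6.08, 8.82 and 8.05 CPM in Ctrl and at 13.4, 13.3 and 12.97 CPM with TGFβ (log2 fold-change 0.72 ± 0.12). C3 went from 603 ± 4.3 to 687 ± 12 CPM (SD, n = 3), a log2 fold-change of 0.15 ± 0.033, with the libraries apart. CFB was at 1.85, 1.60 and 1.61 CPM in Ctrl and at 0.947, 0.999 and 1.02 CPM with TGFβ. It passed as lower (log2 fold-change -0.79 ± 0.31, adjusted p = 0.0237), but not in 6 of 12 alternatives. The adjusted p was 0.142 with DESeq2, 0.0701 with no filter, 0.0607 without Ctrl replicate 1, and 0.0708, 0.0592 and 0.0531 without TGFβ replicate 1, 2 and 3. SAA1 was at 1.48 ± 0.40 and 1.64 ± 0.67 CPM and SAA2 at 0.658 ± 0.096 and 1.03 ± 0.29 CPM, with adjusted p of 0.662 and 0.185.

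The difference between the TGFβ responses of the 2 sphere lines was tested as an interaction in 1 fit of the 12 sphere libraries. Of 7 members tested, 6 had a higher log2 response in MII- than in MI-spheres and none a lower one, where 12.6% of 18591 genes had a higher and 9.75% a lower response. The difference on the log2 scale was 4.84 ± 0.29 for FGB, 3.37 ± 0.35 for SAA2, 2.50 ± 0.28 for SAA1, 2.07 ± 0.52 for FGG, 1.83 ± 0.28 for CFB and 1.68 ± 0.065 for C3. For SERPINA3 it was 0.35 ± 0.48 (adjusted p = 0.703). The value for FGG rests on 10 counts in the 3 MII Ctrl libraries together, and FGG entered the test only through the MI libraries. The count of 6 therefore only describes the selected genes. FGB fell in MI-spheres and rose in MII-spheres, where its side was fixed by the filter. CFB passed as lower in both lines, in MII-spheres in only 6 of 12 alternatives.

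**Figure D1:**
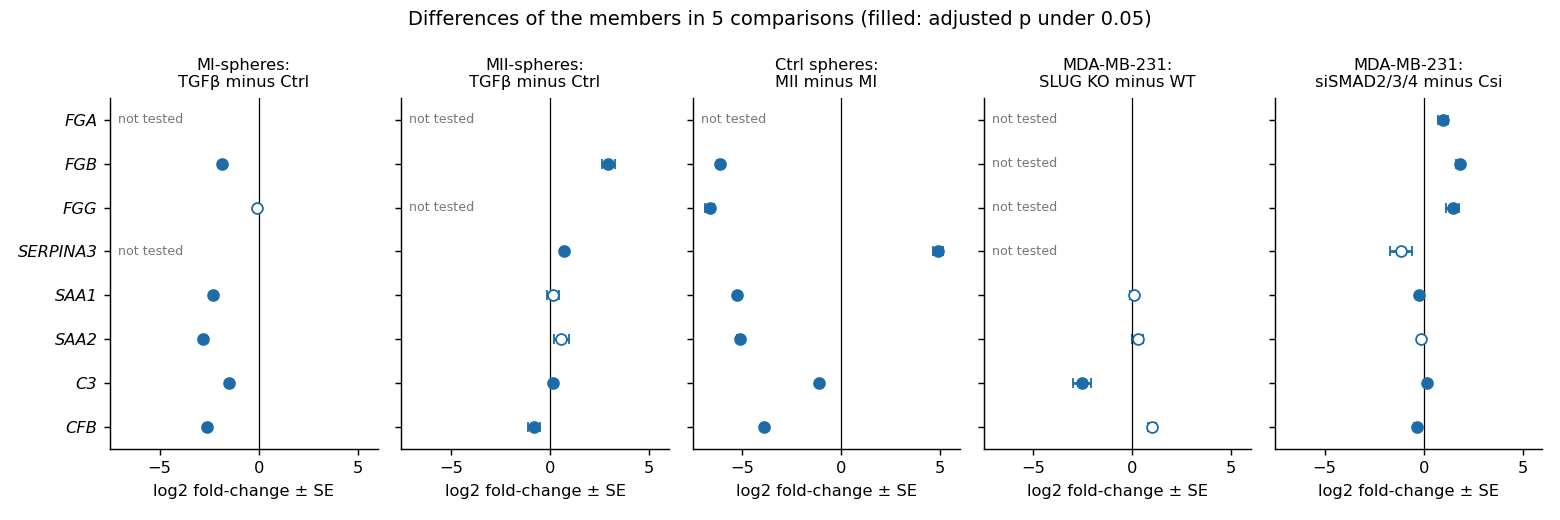
Log2 fold-change with its SE (x axis, from 6 libraries each) of 8 members in 5 comparisons, one panel each; filled points passed at an adjusted p under 0.05 and open points did not. In MI-spheres all 6 members tested lie left of 0, 5 of them filled, FGB lies right of 0 in MII-spheres, and the widest differences are between the unstimulated lines, from -6.63 for FGG to 4.90 for SERPINA3.

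Unstimulated MII-spheres differed from unstimulated MI-spheres in all 7 members tested. Of these, 6 were lower and 1 was higher in MII, where 32.5% of 17862 genes were lower and 31.7% higher, and the median was -5.11 against 0.02 over all genes. FGB, FGG and SERPINA3 entered the test only through the line where they were high. In the other line they had 6 to 13, 1 to 6 and 5 to 7 counts per library. Their side was therefore fixed by the filter, and the counts and the median only describe the selected genes. The log2 fold-change was -6.13 ± 0.16 for FGB and -6.63 ± 0.23 for FGG, which went to 0.0661, 0.1003 and 0.333 CPM. It was -5.25 ± 0.11 for SAA1, -5.11 ± 0.15 for SAA2, -3.89 ± 0.12 for CFB and -1.11 ± 0.034 for C3, which was still at 603 CPM. SERPINA3 was at 0.270, 0.241 and 0.259 CPM in MI Ctrl and at 6.08 to 8.82 CPM in MII Ctrl, a log2 fold-change of 4.90 ± 0.26. The libraries of the lines were apart for each of these genes. In bulk RNA, fewer cells that express a gene and less RNA per cell cannot be told apart.

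MDA-MB-231 cells expressed both serum amyloid genes but little or no fibrinogen. In WT cells and in those labelled SLUG KO, FGB and FGG had 0 counts in all 6 libraries, where 3 counts would be 0.113 to 0.137 CPM. FGA had 1 count in 1 library labelled SLUG KO. Of 4 members tested between these groups 1 was lower in those labelled SLUG KO and none was higher, where 1.89% of 17428 genes were lower and 1.45% higher. C3 was at 9.38, 20.0 and 6.24 CPM in WT and at 2.14, 1.73 and 2.44 CPM in the libraries labelled SLUG KO. Every WT value was above every SLUG KO value (log2 fold-change -2.52 ± 0.46, adjusted p = 0.0316). The highest C3 was that of WT replicate 2, and without it the log2 fold-change was -1.90 with an adjusted p of 7.88e-06. The call was lost without SLUG KO replicate 1, 2 or 3 (adjusted p = 0.153, 0.160 and 0.138) or WT replicate 1 (0.0793), with a replicate block (0.0670) and with at least 10 counts in every library (0.0538).

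CFB lay on the other side, at 5.97, 5.01 and 4.75 CPM in WT and at 10.3, 11.8 and 9.46 CPM in the libraries labelled SLUG KO. The groups did not overlap but the difference did not pass (log2 fold-change 0.98 ± 0.21, adjusted p = 0.0557), and without WT replicate 2 its adjusted p was 0.000338, with DESeq2 0.00363 and with no filter 0.0424. The CFB to C3 count ratio was 0.549 ± 0.27 in WT and 5.16 ± 1.5 in the libraries labelled SLUG KO. SAA1 was at 23.6 ± 2.8 and 25.1 ± 1.9 CPM (adjusted p = 0.852) and SAA2 at 5.19 ± 1.6 and 6.37 ± 0.70 CPM (adjusted p = 0.629), both with overlapping ranges. SERPINA3 had 1, 4 and 2 counts in WT and 0 in each library labelled SLUG KO.

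With siSMAD2/3/4, all 3 fibrinogen chains rose over Csi, and these were the 2 groups with a mean FGA above 0.3 CPM. Of 8 members tested 4 rose and 2 fell, where 16.3% of 17696 genes rose and 19.7% fell. The median was 0.00 over the members and over all genes. In the file names, siSMAD2/3/4 replicates 1 and 2 carried another flow cell than replicate 3 and all Csi libraries. Flow cell and knockdown were thus partly confounded, and the fit with a flow cell term rests on siSMAD2/3/4 replicate 3 against Csi. FGA was at 0.704, 0.764 and 1.17 CPM with Csi and at 1.80, 1.72 and 1.76 CPM with siSMAD2/3/4 (log2 fold-change 0.99 ± 0.26). FGB was at 1.17, 1.08 and 1.25 CPM with Csi and at 4.59, 3.91 and 3.87 CPM with siSMAD2/3/4 (1.81 ± 0.18). FGG was at 0.335, 0.711 and 0.407 CPM with Csi and at 1.60, 1.31 and 1.18 CPM with siSMAD2/3/4 (1.46 ± 0.33). None of the 3 overlapped, and each passed in all 12 alternatives, though on 10 to 46 counts per Csi library. Per kb of exon the chains with siSMAD2/3/4 were at 0.449 (FGA), 0.942 (FGB) and 0.379 CPM (FGG), and FGB counts were 2.34 ± 0.19 times those of FGA, against 1.38 ± 0.30 times with Csi.

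**Figure D2:**
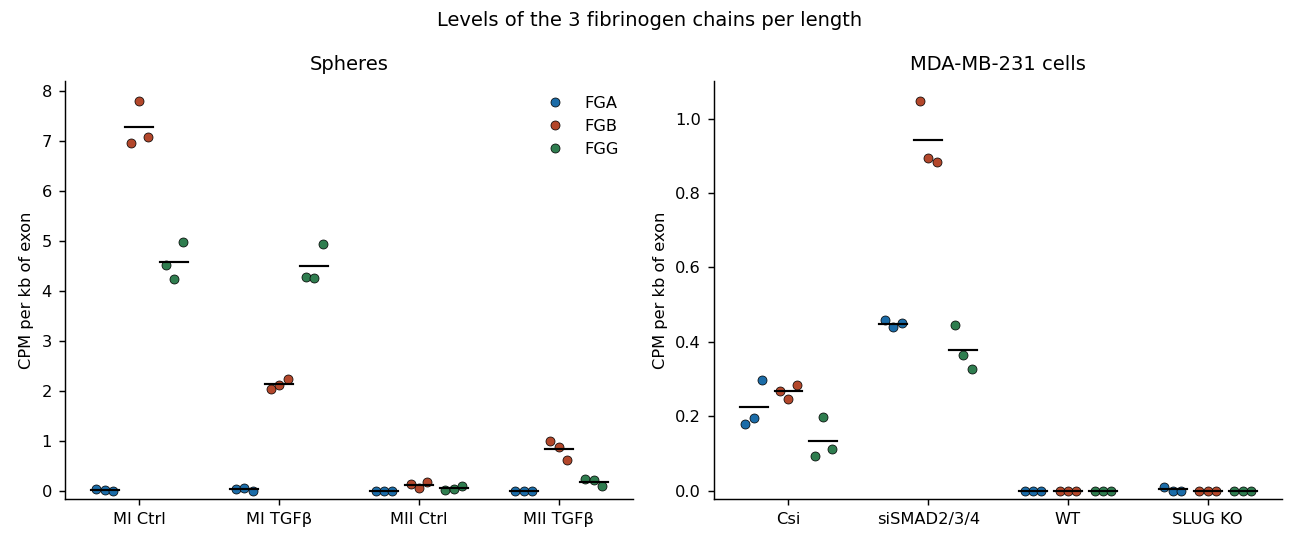
CPM per kb of exon of FGA, FGB and FGG in each library (points) with the group mean (bar), in spheres (left) and MDA-MB-231 cells (right; the axes differ). MI-spheres had FGB and FGG with FGA near 0, all 3 chains were above 0 in Csi and siSMAD2/3/4, and FGB and FGG were at 0 in WT and SLUG KO.

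Of the remaining members CFB and SAA1 passed as lower and C3 as higher with siSMAD2/3/4. CFB was at 8.11, 7.88 and 7.35 CPM with Csi and at 6.55, 6.03 and 5.69 CPM with siSMAD2/3/4, without overlap, and fell by 0.35 ± 0.11 on the log2 scale. SAA1 was at 42.6, 50.8 and 51.0 CPM with Csi and at 46.1, 41.3 and 36.6 CPM with siSMAD2/3/4. These ranges overlapped although the difference passed (log2 fold-change -0.23 ± 0.067, adjusted p = 0.00827), and it did not pass without Csi replicate 2 or 3 or siSMAD2/3/4 replicate 3 (adjusted p = 0.0614, 0.0773 and 0.0952). C3 was at 88.9 ± 6.1 and 98.8 ± 10 CPM, also with overlap (0.15 ± 0.057, adjusted p = 0.0402), and with a term for the flow cell named in the files it was -0.0132. It did not pass without Csi replicate 3 or siSMAD2/3/4 replicate 1 or 2 (adjusted p = 0.293, 0.343 and 0.0930), nor with DESeq2 (0.0742). SAA2 (adjusted p = 0.280, and 0.0469 without siSMAD2/3/4 replicate 1) and SERPINA3 did not pass. SERPINA3 was at 0.335, 0.342 and 0.298 CPM with Csi and at 0.166, 0.0583 and 0.217 CPM with siSMAD2/3/4, without overlap, on 2 to 13 counts per library (log2 fold-change -1.14 ± 0.55, adjusted p = 0.103). SERPINA3 entered this test only through the Csi libraries, so its side was fixed by the filter.

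Csi and WT libraries both come from MDA-MB-231 cells labelled WT, and they carry different batch labels, so that batch and transfection cannot be told apart and no test was run between them. C3 was at 88.9 ± 6.1 CPM in Csi and 11.9 ± 7.2 CPM in WT, SAA1 at 48.1 ± 4.8 and 23.6 ± 2.8 CPM, and FGB at 1.17 ± 0.084 CPM and 0. The epithelial gene CDH1 was at 17.8 CPM in Csi and 1.23 CPM in WT.

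The shares of all genes that passed were 28.7% higher and 27.4% lower in MI-spheres with TGFβ, 29.9% and 27.6% in MII-spheres with TGFβ, 31.7% and 32.5% in MII against MI, 1.45% and 1.89% in libraries labelled SLUG KO against WT, and 16.3% and 19.7% in siSMAD2/3/4 against Csi. Among the other acute-phase proteins, of which 4 to 7 of 21 listed genes were tested, LCN2, an iron-siderophore binding protein of epithelia and neutrophils, was among those that fell in MI-spheres. It went from 243 ± 5.1 to 16.1 ± 1.2 CPM with TGFβ (log2 fold-change -3.99 ± 0.066), with 1 gene of the list higher and 2 lower. In MII-spheres LCN2 was at 1314 ± 16 CPM in Ctrl and 1325 ± 7.1 CPM with TGFβ and did not pass. There 3 genes of the list rose and 1 fell, with CP, the ferroxidase ceruloplasmin, from 207 to 295 CPM and SERPINA1, alpha-1-antitrypsin, from 8.20 to 13.4 CPM among those that rose, and TF, the iron carrier, fell from 1.34 to 0.584 CPM. TF entered the test through the Ctrl libraries, so its side was fixed by the filter. Unstimulated MII-spheres had 4 genes of the list higher than MI-spheres and 1 lower. CP was 4.24 ± 0.056 and LCN2 2.45 ± 0.036 higher on the log2 scale, the side on which SERPINA3 lay, and LRG1 was at 1.41 against 9.08 CPM. In the libraries labelled SLUG KO SERPINA1 was at 60.8 against 28.5 CPM in WT, with no gene lower, and with siSMAD2/3/4 LCN2 (0.64 ± 0.15) and SERPINA1 (0.28 ± 0.056) rose and none fell.

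Counts of other complement components and their regulators are given beside the shares of all genes, and a count near its share is no result about the list. Of 9 components tested with TGFβ in MI-spheres, 3 rose and 2 fell, beside 28.7% and 27.4% of all genes. The C1 protease gene C1S was at 6.50 and 9.39 CPM and C9 of the membrane attack complex at 1.03 and 0.385 CPM. C9 and C2 (0.796 and 0.360 CPM), the 2 that fell, entered the test through the Ctrl libraries, so their side was fixed by the filter. Of 8 regulators, 3 rose and 2 fell, beside the same shares. CD59, which blocks the membrane attack complex, rose by 0.68 ± 0.052 on the log2 scale, while CD55, which speeds the decay of convertases, fell by 1.07 ± 0.059. In MII-spheres 2 of 9 components rose and none fell, and 3 of 7 regulators rose and 2 fell, beside 29.9% and 27.6% of all genes. CD59 went from 566 to 907 CPM and CD55 from 226 to 190 CPM. Between the unstimulated lines 3 of 11 components were higher in MII and 3 lower, beside 31.7% and 32.5% of all genes. Among the higher were the near-identical C4A and C4B at 3.42 and 3.85 CPM in MII and under 1 CPM in MI. C4B, at 0.220 CPM in MI, entered the test through the MII libraries, so its side was fixed by the filter. Of the regulators 7 of 8 were higher in MII and 1 was lower, with CD59 at 566 against 210 CPM. In libraries labelled SLUG KO, where CFB did not pass, its neighbour C2 was at 7.77 against 2.40 CPM (1.67 ± 0.21) and CFP, the stabilizer of the alternative convertase, at 6.81 against 2.62 CPM. C2 and CFB overlap, and 38.8% of the exon bases of C2 are shared with other genes, an antisense gene among them, so its value is uncertain. The regulator CLU was at 156 against 53.2 CPM. Of 11 components 2 were higher and none lower, and of 8 regulators 1 was higher and 1 lower, beside 1.45% and 1.89% of all genes. With siSMAD2/3/4, C1RL rose and C5 fell among 11 components, and 3 of 10 regulators rose and 2 fell, beside 16.3% and 19.7% of all genes. Of these regulators CLU (0.38 ± 0.042) had the smallest adjusted p among those that rose and CD46 (-0.38 ± 0.039) among those that fell.

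Of 12 genes of coagulation other than fibrinogen tested in MI-spheres with TGFβ, 6 rose and 2 fell, where 28.7% and 27.4% of all genes did. PROCR, the endothelial protein C receptor, went from 8.95 to 32.0 CPM and PROS1, protein S, from 12.2 to 37.1 CPM, whereas TFPI, the inhibitor of tissue factor, fell by 0.75 ± 0.091 on the log2 scale. In MII-spheres 3 of 8 rose and 2 fell, beside 29.9% and 27.6% of all genes, with ITGB3, a fibrinogen receptor subunit, from 124 to 63.5 CPM. Between the unstimulated lines 5 of 12 were higher in MII and 6 lower, beside 31.7% and 32.5% of all genes. ITGB3 was at 124 against 2.00 CPM and PROS1 at 0.370 against 12.2 CPM. PROS1 entered this test through the MI libraries, so its side was fixed by the filter. In libraries labelled SLUG KO, TFPI2 was higher and F13A1, the subunit that crosslinks fibrin, lower, as 2 of 13 tested. Of all genes 1.45% were higher and 1.89% lower there. F13A1 was at 0.202 against 1.40 CPM in WT and entered the test through the WT libraries, so its side was fixed by the filter. With siSMAD2/3/4, THBD, thrombomodulin, went from 116 to 200 CPM as 1 of 3 of 14 that rose, and F3, tissue factor, fell by 0.27 ± 0.043 as 1 of 2 that fell. Of all genes 16.3% rose and 19.7% fell there.

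Of 31 signalling genes of the acute phase, receptors, cytokines and transcription factors, 26 were tested in MI-spheres with TGFβ. Of these 13 fell and 5 rose, where 27.4% and 28.7% of all genes did. NFKBIZ, a nuclear NF-κB cofactor for acute-phase genes, went from 141 to 40.6 CPM (-1.88 ± 0.059) and NFKBIA, the NF-κB inhibitor that is itself an NF-κB target, from 373 to 153 CPM (-1.36 ± 0.051). IL1A rose from 16.6 to 28.6 CPM. In MII-spheres 10 of 25 rose and 7 fell, beside 29.9% and 27.6% of all genes. OSMR, the oncostatin M receptor, went from 61.3 to 103.4 CPM, IL1A from 1.59 to 5.64 CPM and NFKBIZ from 293 to 203 CPM (-0.56 ± 0.038). In the interaction 17 of 26 had a higher and 2 a lower response in MII-spheres, against 12.6% and 9.75% of all genes. Those 2 were CEBPA (-1.32 ± 0.19) and LIFR. Between the unstimulated lines 7 of 25 were higher in MII and 12 lower, beside 31.7% and 32.5% of all genes. NFKBIZ was at 293 against 141 CPM and NFKBIA at 79.5 against 373 CPM. In libraries labelled SLUG KO, 3 of 24 were higher and 1 lower, beside 1.45% and 1.89% of all genes. IL6, the main inducer of the liver response, was at 36.0 ± 6.5 against 8.02 ± 2.0 CPM, IL1RN at 5.69 against 0.446 CPM and IL11 at 0.602 against 21.3 CPM. SAA1 and SAA2 did not pass there, as given above, and a link between IL6 and the members was not tested. With siSMAD2/3/4, 4 of 25 rose and 8 fell, beside 16.3% and 19.7% of all genes. STAT3 was at 259 against 221 CPM and IL6ST, the shared receptor subunit of the IL-6 family, at 294 against 430 CPM.

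Over the 8 group means of log2 CPM the members fell into separate patterns. SAA1 and SAA2 had a Pearson r of 0.971, SAA2 and CFB 0.935, FGB and FGG 0.945 and SAA1 and SERPINA3 -0.888, whereas FGA had r of 0.303 with FGB and 0.241 with FGG. Among 13869 protein-coding genes, those most like each member included CAMKK2 (0.994) and DCAF5 for FGA, LPAR5 (0.954), ACP2 and RNF114 for FGB, and ZNF768 (0.989), RAB3D and TMOD2 for FGG. They were MSLNL (0.971), SAA2 and MSLN (0.969) for SAA1, TNIP1 (0.985), PAPLN and CAMK2A for SAA2, and ST6GAL1 (0.995), NEBL and KMT5C for C3. For CFB they were RFTN1 (0.963), TXNDC16 and SAA2, and for SERPINA3 ESRRG (0.994), PECAM1 and NFIB. With 8 points that share lines and batches, these values are a description, and no p is given.

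Several neighbours in the order of group means overlapped. FGG in MI Ctrl and MI TGFβ, SAA1 and SAA2 in Csi and siSMAD2/3/4, and both in SLUG KO and WT overlapped, as did C3 in siSMAD2/3/4 and Csi. For C3 every other step, from MI Ctrl (1314 CPM) through MII TGFβ (687), MII Ctrl (603), MI TGFβ (486) and siSMAD2/3/4 (98.8) to WT (11.9) and SLUG KO (2.11 CPM), was without overlap. CFB had its second highest mean in the libraries labelled SLUG KO (10.5 CPM) and its lowest in MII TGFβ (0.988 CPM), with overlap between siSMAD2/3/4 and WT alone.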

How the data were processed

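Total RNA was ribosomal RNA-depleted and sequenced as paired reads. The authors aligned reads to GRCh38 with STAR and deposited raw fragment counts per gene from featureCounts (Subread 2.0.0, GENCODE 38), which required both mates to map, with a mapping quality of 30 or more. Per the file headers no strand option was set and fragments over overlapping genes were not assigned, so exons of CFB, SERPINA3 and SAA2 shared with other genes add no counts, and sense and antisense fragments are not told apart. Symbols came from GENCODE 44 (60463 of 60708 genes).

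After filterByExpr and TMM, edgeR 4.0.16 (R 4.3.3) gave quasi-likelihood tests, for each comparison from its own 6 libraries and for the interaction from 12; p was adjusted by Benjamini-Hochberg across every gene tested. SE is the absolute log2 fold-change before edgeR's shrinkage, divided by the root of F. The log2 fold-changes given are those after shrinkage. An exact permutation of 3 against 3 libraries cannot go below p = 0.1. On simulated counts with 200 genes changed by 2 on the log2 scale, 160 (SLUG KO) to 193 (MII-spheres) were recovered, none the wrong way. The 9 members and the 5 gene lists were chosen with earlier results of these data known. Named are the members, the targeted genes and HRAS, at most 2 genes per list, comparison and direction with the smallest adjusted p among those that passed, and 3 genes nearest in pattern (protein-coding, at least 1 CPM in some group, prior count 2); CDH1, TP63, VIM, CD14, LYZ, PTPRC, ALB and TTR are from the marker lists. Same-numbered libraries were not paired by any source, and their deviations correlated at -0.123 to 0.0320. Alternatives were DESeq2 1.42.0, its size factors in edgeR, no filter, at least 10 counts in every library, a replicate block, all 12 sphere libraries in 1 fit, the flow cell named in the files as a term, and leaving out each library. The 16 ATAC-seq samples were not analysed here, and some genes that the naming rule selects are not reported here.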

Additional observations from a re-analysis of the deposited data

Results flagged for a closer look

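The TGFβ response differed between MII- and MI-spheres, by the interaction term of edgeR's quasi-likelihood test, for 6 members and 15 other named genes. The differences, MII minus MI on the log2 scale with adjusted p over 18591 genes, were 4.84 for FGB (adjusted p = 2.07e-16), 3.37 for SAA2 (5.35e-10), 2.50 for SAA1 (3.36e-09), 2.07 for FGG (0.00219), 1.83 for CFB (3.23e-06) and 1.68 for C3 (4.15e-22). The members were chosen with these counts in view, so the values are no independent support. The other genes were named for a small adjusted p in the TGFβ comparisons or in this interaction itself. Their number therefore follows largely from that choice and is no result. Over all genes 12.6% had a higher and 9.75% a lower response in MII-spheres.

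Among acute-phase proteins the difference was 3.98 for LCN2 and 0.74 for CP. Among complement regulators it was 0.80 for CD55 and -0.92 for CFI. Among coagulation genes it was 0.92 for TFPI, 0.30 for F3, -0.84 for F12 and -1.604 for ITGB3. Among signalling genes it was 1.33 for NFKBIZ, 1.08 for NFKBIA, 1.07 for IL1A, 0.90 for IRF1, 0.35 for OSMR, -0.55 for LIFR and -1.32 for CEBPA.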

How the results depend on the processing

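Of 476 member values under alternatives, 449 kept direction and side of the threshold, 19 lost and 4 gained the call, and 4 changed sign. With at least 10 counts in every library, members that passed went from 7 to 3 between the unstimulated lines and from 6 to 3 in the interaction, where 3 were left to test. For SLUG KO against WT the 1 call became 2 with DESeq2 and with no filter, 0 with at least 10 counts, and 0 to 2 when leaving out a library, being 0 without SLUG KO replicate 1, 2 or 3 or WT replicate 1 and 2 without WT replicate 2. With the replicate block, for numbers that do not pair the libraries, it was 0. The replicate block changed no other call of a member. The sign changes were SAA1 in MII-spheres (-0.0347 without Ctrl replicate 2, -0.153 without TGFβ replicate 1; leave-one-out range -0.153 to 0.444), SAA1 in SLUG KO (-0.0022 without WT replicate 2; range -0.0022 to 0.153) and C3 with siSMAD2/3/4 (-0.0132 with the flow cell as a term). The cause was not tested. Another scaling moved the median of all genes by at most 0.0111. Depth limits FGA, FGG, SERPINA3 and ORM1, at a few counts in several groups.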
